A study of Mus musculus with 5 samples.

Results

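Genes of calcium handling by the sarcoplasmic reticulum were followed in left ventricle of mice made diabetic with streptozotocin. The genes were Pln, Camk2a, Camk2d, Asph and Ryr2, and every cassette exon event listed for them was taken, which gave 7 events of 6616. A cassette exon event is an exon, with its upstream and downstream neighbour, that a transcript either holds or skips. Pln, Camk2a and Ryr2 had 1 event each, and Camk2d and Asph had 2 each. The tables named 4 of the 7 events with these symbols. The 45-nt event of Asph and the 55-nt event of Camk2d carried no symbol and were named by the lengths of the exon and its introns in a mouse annotation. The Ryr2 event was also named in that way, since the tables gave a cDNA name in place of a symbol, together with the Ensembl identifier ENSMUSG00000021313.

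RNA was sequenced from 3 STZ and 2 Control samples of C57BL/6 left ventricle, all from animals 12 weeks old. STZ mice received intraperitoneal streptozotocin, a toxin of the insulin-producing beta cells, at 70 mg/kg daily for 5 days from 8 weeks of age, and Control mice received citrate buffer alone on the same days. The labels do not state that each sample is a separate animal, so the p-values measure the spread between these samples. Blood glucose was not analysed here. Libraries are called STZ A, STZ B, STZ C, Control A and Control B. Their groups were taken from the group sizes alone, since the tables set 3 libraries against 2. The codes follow 2 naming schemes, 1 for each group, so a handling or sequencing series and STZ treatment cannot be told apart for any result below.

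At each heartbeat calcium enters the cardiomyocyte and opens the ryanodine receptor Ryr2, the release channel of the sarcoplasmic reticulum. The calcium pump SERCA then refills the store, and phospholamban, the small membrane protein made from Pln, inhibits that pump until it is phosphorylated by protein kinase A or by CaMKII. Camk2d encodes the main CaMKII of heart muscle. Camk2a encodes a neuronal CaMKII and, from an internal promoter, the muscle anchoring protein alphaKAP, which lacks the kinase domain. Asph encodes an aspartyl beta-hydroxylase and also the shorter proteins junctin and junctate, of which junctin binds the ryanodine receptor.

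The sequences of the alternative exons are shown because they give the 2 readings that each event counts. They are written 5′ to 3′ from GENCODE M21 transcripts (GRCm38), with up to 20 bases of each neighbouring exon in lower case and the cassette exon in capitals. Positions are those of the tables, in mm9. The 45-nt exon of Asph (chr4:9564806-9564850, minus strand) and the 21-nt exon of Ryr2 (chr13:11995485-11995505, minus strand) are coding and keep the reading frame, as does the 48-nt exon of Asph (chr4:9525880-9525927, minus strand).
Asph 45 nt, included: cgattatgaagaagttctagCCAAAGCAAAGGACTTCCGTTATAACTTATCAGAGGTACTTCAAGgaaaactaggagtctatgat
Asph 45 nt, skipped: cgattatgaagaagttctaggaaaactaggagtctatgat
Asph 48 nt, included: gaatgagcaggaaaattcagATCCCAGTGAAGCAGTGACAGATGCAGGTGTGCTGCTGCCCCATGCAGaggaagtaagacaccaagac
Ryr2 21 nt, included: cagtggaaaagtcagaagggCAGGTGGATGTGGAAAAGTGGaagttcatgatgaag
Ryr2 21 nt, skipped: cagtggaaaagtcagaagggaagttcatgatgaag

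Camk2d events change the protein in other ways. The 89-nt exon (chr3:126544403-126544491, plus strand) carries 64 coding bases and then a TGA stop codon, so transcripts that hold it and transcripts that skip it end in different C-terminal tails. Skipping joins the upstream exon to a last exon that adds 1 coding base before the stop codon TAA. The 55-nt exon (chr3:126482863-126482917, plus strand) is annotated in 1 transcript, a target of nonsense-mediated decay, in which it brings an early TGA. Both exons are shown up to the stop codon, with 22 and 25 bases of the exon left out.
Camk2d 89 nt, included: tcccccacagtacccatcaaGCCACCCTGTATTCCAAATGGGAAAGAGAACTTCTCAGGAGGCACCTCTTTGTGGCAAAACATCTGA
Camk2d 89 nt, skipped: tcccccacagtacccatcaactaa
Camk2d 55 nt, included: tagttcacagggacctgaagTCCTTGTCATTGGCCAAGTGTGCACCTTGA
Camk2d 55 nt, skipped: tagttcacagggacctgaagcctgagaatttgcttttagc

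Pln has its whole coding sequence in its last exon, and the 127-nt cassette exon (chr10:53061788-53061914, plus strand) is noncoding and lies 5′ of it. The coding sequence is given with its start and stop codon in capitals, since both forms of the event encode the same protein. The 250 bases upstream of the Pln start site (RefSeq, GRCm38.p6, chr10:53337436-53337685, plus strand) are given with motif matches in capitals.
Pln coding sequence: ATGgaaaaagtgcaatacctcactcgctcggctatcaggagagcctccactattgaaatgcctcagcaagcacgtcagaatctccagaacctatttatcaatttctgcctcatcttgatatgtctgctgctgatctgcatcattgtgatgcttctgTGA
Pln promoter: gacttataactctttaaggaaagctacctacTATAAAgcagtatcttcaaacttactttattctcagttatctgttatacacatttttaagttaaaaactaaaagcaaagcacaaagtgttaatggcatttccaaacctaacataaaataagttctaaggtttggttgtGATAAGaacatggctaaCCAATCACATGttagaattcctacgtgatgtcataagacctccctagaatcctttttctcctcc

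Motifs were searched as letters on both strands of this window. The TATA box motif (letters TATAAA) was found at 1 place, and 12.4% of all 32851 promoter windows hold it. The motif of GATA factors (letters GATAAG) also occurred at 1 place, and is held by 6.55% of all windows. The other 2 motifs found lie directly next to each other and share no base, so that their capitals form a single run: letters CCAAT, in 33.8% of all windows, and the E-box written as CANNTG, in 66.2%. The forkhead motif, with letters GTAAACA, was not in the window and occurs in 3.17% of all. Of the 3 genes matched to a promoter entry, Camk2d held none of the 5 motifs and Ryr2 held CANNTG at 2 places. A match is a run of letters and was not tested as a binding site.

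Depth and tissue bear on every value. Libraries held 6741244 to 7676251 event reads in STZ and 9231777 to 11431749 in Control, where event reads are the reads that fit the including isoform, the skipping isoform or both. Levels are given as RPM, event reads per 1000000 event reads of the library, and errors are SDs over the 3 STZ and the 2 Control libraries. Cardiomyocyte markers were present, and the 4 of 13 with an event (Tnnt2, Ttn, Ldb3 and Mb) summed to 27161 to 31686 RPM in STZ and 26261 to 27370 in Control. The 3 measured endothelial markers of 8 summed to 4522 to 7401 in STZ and 1856 to 2098 in Control, mostly from Pecam1. The 4 measured smooth muscle markers of 8 summed to 854 to 1277 in STZ and 607 to 655 in Control, and the 2 of 9 for fibroblasts to 58.5 to 90.1 in STZ and 108 to 127 in Control. The 3 leukocyte markers of 8 gave 62.7 to 135 in STZ and 99.0 to 121 in Control. Members of a sum did not all move alike. Cd74 had 4.69 to 14.5 in STZ and 31.8 and 56.1 in Control, while Cd68 had 57.6 to 121 in STZ and 64.9 and 66.3 in Control. Of the smooth muscle markers, Smtn was lower in every STZ library (206 to 303, against 349 and 363), and Myh11, Myocd and Cald1 were higher. Nerve and skeletal muscle markers, 2 each of 8 and 9, were low, with Syt1 and Tnnt3 at 0 in every library. The part of these cell markers in the results below was not tested.

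Event reads of all 5 genes fell in STZ left ventricle. As ratios of group means, the fall was 1.64-fold for Camk2d, 3.03-fold for Pln and 5.37-fold to 6.49-fold for Ryr2, Asph and Camk2a. In limma all 5 passed an adjusted p of 0.05 and were lower, beside 29.3% of the 4225 tested genes called lower in STZ and 18.7% higher. The 5 genes were chosen with earlier results of these data known. Setting them against all genes is therefore a description and no test of the 5 as a group. No value of an STZ library reached a Control value for any of the 5, and the same was so, in this direction, for 40.9% of all tested genes. The median log2 change was -2.69 over the 5 genes and -0.17 over all tested genes. In whole tissue, fewer cells of a type and less RNA per cell cannot be told apart.

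Phospholamban gave the largest share of reads. Pln had 38768, 29039 and 33536 RPM in STZ A, STZ B and STZ C, against 102404 and 102117 in Control A and Control B. Its event alone took 2.90% to 3.88% of all event reads of an STZ library and 10.2% of those of either Control library. Every STZ library was thus far under both Control libraries, which lay close together. The means were 33781 ± 4869 in STZ and 102261 ± 203 in Control (SD, n = 3 and 2), a log2 change of -1.61 (SE 0.143; limma, adjusted p = 0.000143). Of the 4225 tested genes, 315 including Pln had a change at least as far below 0.

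Because Pln is so large a part of the total, every other gene's share moves with it. With the reads of Pln left out of the total, a scaling added after the data were seen, the median of all genes was at -0.27 on the log2 scale. The median lay at 0.00 when libraries were scaled by the median of ratios, and then 1010 genes were called higher and 1041 lower, in place of 789 higher and 1236 lower. The 5 genes stayed lower under each of these scalings. Relative to the median of all genes, the log2 change was -1.44 for Pln, -2.52 for Camk2a, -0.55 for Camk2d, -2.56 for Asph and -2.63 for Ryr2.

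Events of the calcium release genes held far fewer event reads than that of Pln, on a scale that does not account for the length of an event. Ryr2, the release channel itself, had 2.24, 0.65 and 0.15 RPM in STZ A, STZ B and STZ C, against 3.79 and 7.09 in Control A and Control B. These values rest on 17, 5 and 1 reads in STZ and on 35 and 81 reads in Control. The STZ libraries differed from each other by several fold and the Control libraries by less, and the groups did not overlap. The log2 change was -2.80 (SE 0.845; limma, adjusted p = 0.0255), with means of 1.01 ± 1.09 in STZ and 5.44 ± 2.33 in Control (SD, n = 3 and 2). That call was lost without STZ B (adjusted p = 0.0662), without Control A (0.0636) and without Control B (0.154).

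Asph, the source of junctin and junctate, had 36.4, 17.5 and 13.5 RPM in STZ A, STZ B and STZ C, against 141 and 133 in Control A and Control B. STZ A was the highest of its group, and every STZ library was under both Control libraries. Means were 22.4 ± 12.2 in STZ and 137 ± 5.71 in Control (SD, n = 3 and 2), with a log2 change of -2.73 (SE 0.369; limma, adjusted p = 0.000756). Most of these reads lay in the 45-nt event, which had 33.6, 16.4 and 12.8 RPM in the STZ libraries, against 138 and 130 in the Control libraries (log2 change -2.80; limma over events, adjusted p = 0.000604). The 48-nt event had 2.77, 1.04 and 0.74 in the STZ libraries, against 2.82 and 2.45 in the Control libraries, and did not pass (log2 change -0.96; adjusted p = 0.187). STZ A lay between the 2 Control libraries there, so the groups overlapped. Whether the changes of the 2 events differ was not tested.

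Camk2a and Camk2d, the kinase genes, differed from each other in level and in size of change. Camk2a had 14.2, 12.9 and 11.7 RPM in STZ A, STZ B and STZ C, against 75.4 and 92.7 in Control A and Control B. The STZ values were close together and all well under both Control values. Means of 12.9 ± 1.26 in STZ and 84.1 ± 12.3 in Control (SD, n = 3 and 2) gave a log2 change of -2.69 (SE 0.193; limma, adjusted p = 6.21e-05). The Camk2a event starts from a 410-nt exon that the annotation gives as the first exon, with the start codon, of a short transcript of 7 exons, so its reads are those of the short form to an extent that was not measured.

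Camk2d had 1066, 1206 and 1018 RPM in STZ A, STZ B and STZ C, against 1900 and 1696 in Control A and Control B. All STZ values were lower than both Control values, by a smaller factor than for the other 4 genes. Its means were 1097 ± 97.4 in STZ and 1798 ± 144 in Control (SD, n = 3 and 2), a log2 change of -0.71 (SE 0.129; limma, adjusted p = 0.00271). Nearly all of these reads were on the 89-nt event. The 55-nt event had 2.21 to 2.90 in STZ and 3.76 to 4.66 in Control (log2 change -0.76; limma over events, adjusted p = 0.0846). Without Control A the change of Camk2d missed the threshold (adjusted p = 0.0528).

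Over single events, 5 of the 7 were called lower in STZ, beside 28.7% of the 5901 tested events, and 6 of the 7 did not overlap in this direction, beside 40.5%.

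**Figure D1:**
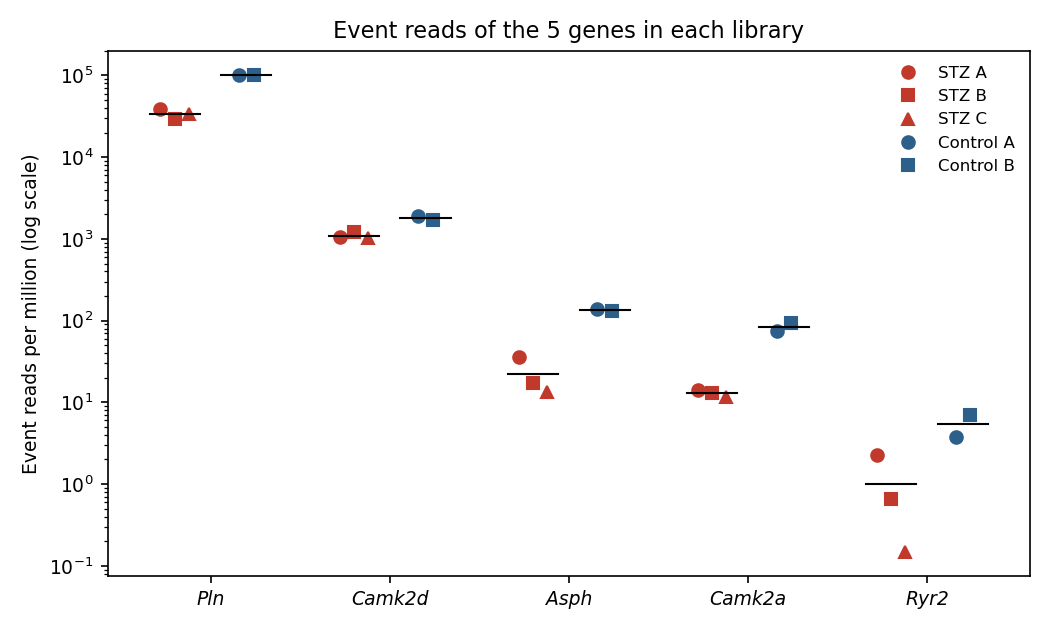
RPM (log axis) of the 5 genes, 1 point per library, red for STZ and blue for Control, with a bar at each group mean. The STZ points lie under the Control points for every gene, from 29039 to 38768 against 102117 and 102404 for Pln down to 0.15 to 2.24 against 3.79 and 7.09 for Ryr2.

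**Figure D2:**
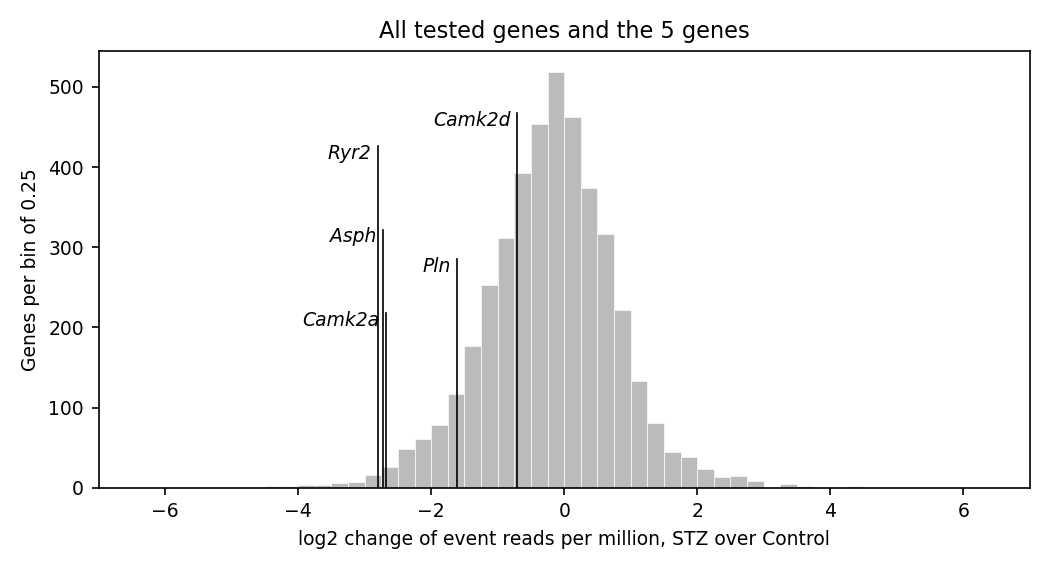
Histogram of the log2 change of RPM, STZ over Control, for 4225 tested genes, with a line for each of the 5 genes whose height has no meaning. All genes have a median of -0.17, while Camk2d is at -0.71, Pln at -1.61, and Camk2a, Asph and Ryr2 are at -2.69 to -2.80.

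Levels of different genes can be set side by side only per length, here as RPM per kilobase of the 3 exons of the event. On this scale the level of Pln was 13616 ± 1963 in STZ and 41217 ± 81.8 in Control, followed by the 89-nt event of Camk2d at 281 ± 25.1 in STZ and 461 ± 36.8 in Control. Camk2a came next, at 26.3 ± 2.55 in STZ and 171 ± 24.9 in Control. The order of these 3 held in every library. The 45-nt event of Asph was at 6.80 ± 3.62 in STZ and 43.5 ± 1.77 in Control, and Ryr2 at 7.19 ± 7.74 in STZ and 38.6 ± 16.5 in Control. Those of the 48-nt event of Asph (10.99 ± 7.92 in STZ and 19.1 ± 1.88 in Control) and of the 55-nt event of Camk2d (10.6 ± 1.70 in STZ and 18.2 ± 2.74 in Control) were lowest in Control. Ranges of these last 4 events overlapped in STZ, and in Control the 45-nt event of Asph overlapped with Ryr2, and the 48-nt event of Asph with the 55-nt event of Camk2d. An event covers 3 exons of a gene, so its level is not that of the whole transcript. Reads that fit neither isoform are left out, and these were 92.4% to 98.7% of listed reads for Ryr2. They were 89.1% to 93.5% for the 48-nt event of Asph, and 5.57% to 8.09% for Pln. The 3 exons span 141 nt for Ryr2 and 2481 nt for Pln, and the positions open to a read were not corrected for. The order of the events therefore depends on their structure to an extent that was not measured.

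Read classes did not fall in the same proportion. In Pln, reads that fit both isoforms were at 35748, 26508 and 30782 RPM in STZ A, STZ B and STZ C, against 96518 and 95751 in Control A and Control B. Skipping-only reads were at 2849, 2405 and 2625 in the STZ libraries, against 5521 and 5982 in the Control libraries. The means of the reads that fit both were 3.10-fold lower in STZ, and those of skipping-only reads 2.19-fold lower. Reads fitting both per informative read (inclusion-only plus skipping-only) were 11.8, 10.5 and 11.2 in the STZ libraries, against 16.4 and 15.04 in the Control libraries, so this ratio was lower in every STZ library. Over all events, with Pln included, the same ratio was also lower in STZ, at 1.53, 1.64 and 1.66, against 1.84 and 1.74 in Control. Pln itself gave 891030 of the 5983306 reads that fit both in Control A, and 271295 of 4591234 in STZ A. The ratio of all events therefore moves with Pln and is no separate measure of the libraries. It was not computed without Pln. The part of Pln in the ratio of all events, and the reverse, was not tested. From informative reads alone the log2 change of Pln was -1.25 (limma, adjusted p = 0.000232).

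The 89-nt event of Camk2d had ratios of 9.76, 10.01 and 11.1 in the STZ libraries, against 13.2 and 11.9 in the Control libraries, and the 45-nt event of Asph had 1.802, 1.29 and 1.77 in the STZ libraries, against 3.01 and 3.21 in the Control libraries. Both were lower in every STZ library. How many of all events had a lower ratio in every STZ library was not computed. For Pln, Camk2d and Asph no such share can thus be set beside this result. Camk2a gave 2.72, 4.21 and 1.82 in the STZ libraries and 3.14 and 3.22 in the Control libraries, and its groups overlapped. From informative reads alone the log2 change was -0.56 for Camk2d, -2.12 for Asph, -2.64 for Camk2a and -3.07 for Ryr2, and each passed in limma (adjusted p = 0.0190, 0.00196, 0.000306 and 0.0221 in that order).

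**Figure D3:**
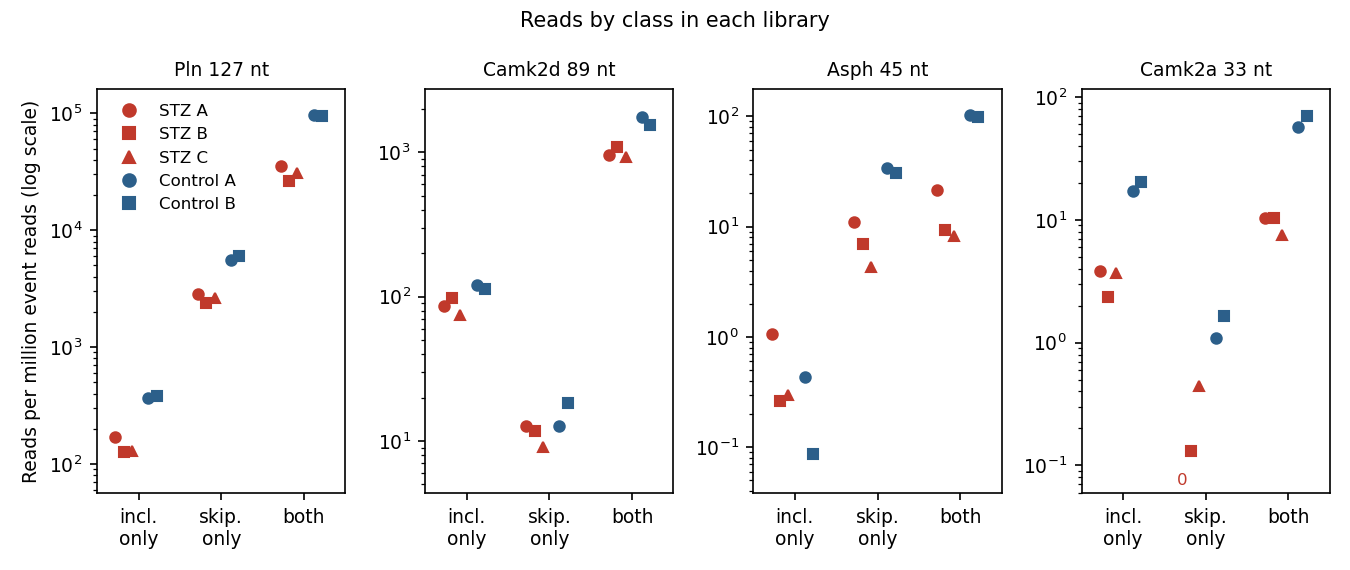
RPM (log axes that differ between panels) of 4 events by read class, inclusion-only, skipping-only or both, with STZ libraries in red left of Control libraries in blue. For the 45-nt exon of Asph skipping-only reads separate the groups, at 4.30 to 10.9 in STZ against 30.8 and 33.9 in Control, while inclusion-only reads overlap.

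**Figure D4:**
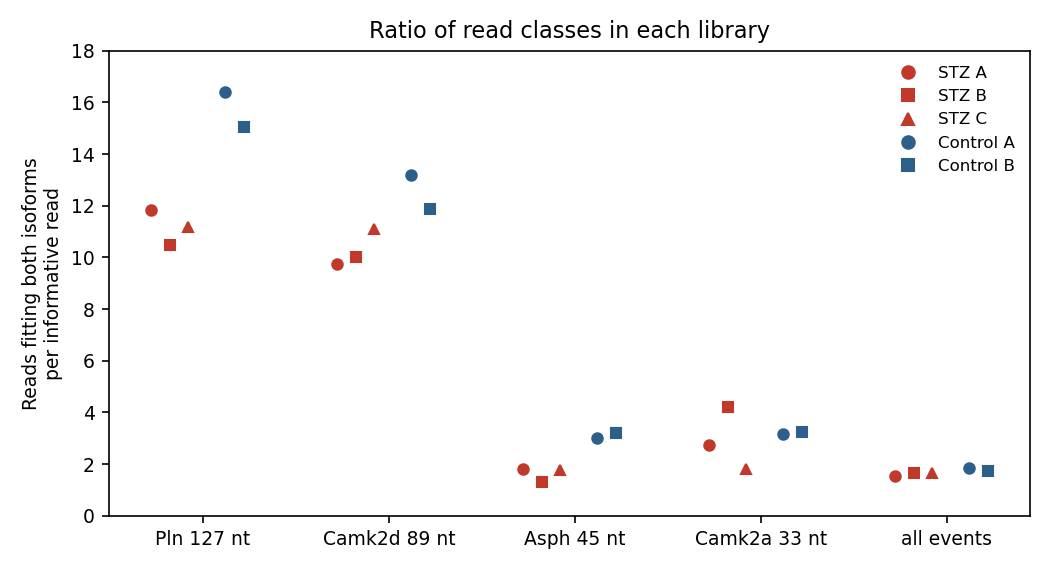
Reads that fit both isoforms per informative read, 1 point per library, for 4 events and for all events together, Pln included. STZ libraries are lower than Control libraries for Pln, Camk2d, Asph and all events, and the groups overlap for Camk2a. The share of single events for which this holds was not computed.

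Inclusion of an exon changed in 1 of the 4 events that could be tested. Psi, the authors' estimate of the fraction of transcripts that hold the exon, was tested for 4 of the 7 events, those with at least 10 informative reads in every library. In limma 1 of the 4, the 45-nt exon of Asph, passed an adjusted p of 0.05, and it was higher in STZ. Over all 4769 tested events 15% were called, 4.84% higher and 10.1% lower in STZ. In the authors' deposited tables none of the 7 events differed by 0.20 or more in Psi with a Bayes factor reaching 10 in each of the 6 pairs of libraries, a rule that 3.22% of 6331 events passed.

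The 45-nt exon of Asph had a Psi of 0.09, 0.08 and 0.09 in STZ A, STZ B and STZ C, against 0.02 and 0.01 in Control A and Control B. The exon was skipped in most transcripts of both groups, and all STZ values were above both Control values, as was so in this direction for 14.1% of all tested events (42.9% in either direction). Means were 0.0867 ± 0.00577 in STZ and 0.015 ± 0.00707 in Control (SD, n = 3 and 2), a change of 1.89 on the natural logit scale (SE 0.246; limma, adjusted p = 0.0265). The call was lost without STZ A (adjusted p = 0.0827), without STZ B (0.0874) and without STZ C (0.0961).

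Reads behind that change were few on the inclusion side. Inclusion-only reads numbered 8, 2 and 2 in STZ A, STZ B and STZ C, against 4 and 1 in Control A and Control B, and skipping-only reads numbered 83, 53 and 29 in the STZ libraries, against 313 and 352 in the Control libraries. The share of inclusion-only among informative reads was 8.79%, 3.64% and 6.45% in the STZ libraries, against 1.26% and 0.283% in the Control libraries. The exact 95% binomial interval of the share of STZ B ran from 0.443% to 12.5%, and that of Control A from 0.345% to 3.20%, so these intervals overlap, and they cover counting error only. On the RPM scale, inclusion-only reads were at 1.05, 0.261 and 0.297 in the STZ libraries, against 0.433 and 0.0875 in the Control libraries, so their groups overlapped. Skipping-only reads were at 10.9, 6.90 and 4.30 in the STZ libraries, against 33.9 and 30.8 in the Control libraries, and did not overlap. The higher Psi therefore came with fewer skipping reads and no separation of inclusion reads.

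In the authors' deposited tables the difference of Psi at this exon, STZ minus Control, was 0.06 to 0.08 over the 6 pairs, and the Bayes factor ran from 0.20 to 158.55, with 1 of 6 at 10 or more. The downstream exon of the event is 2883 nt long in the tables, while the annotated transcripts that join these exons have a 69-nt exon there, except 1 processed transcript with an exon of 2854 nt.

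Psi of the noncoding 127-nt exon of Pln was 0.02 in each of the 5 libraries, so most Pln transcripts skipped it (limma, adjusted p = 1). Inclusion-only reads were 5.68%, 4.96% and 4.66% of informative reads in STZ A, STZ B and STZ C, against 6.21% and 6.04% in Control A and Control B. The lowest Control value was above the highest STZ value, but the read share did not pass in limma (adjusted p = 0.554). The exact 95% interval was 5.38% to 5.99% for STZ A, 4.66% to 5.28% for STZ B and 4.37% to 4.98% for STZ C. It was 6.01% to 6.42% for Control A and 5.86% to 6.21% for Control B. Between the groups only the intervals of STZ A and Control B overlapped, and the intervals cover counting error only.

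Psi of the 89-nt exon of Camk2d, which decides between its C-terminal tails, was 0.79, 0.80 and 0.78 in STZ A, STZ B and STZ C, against 0.82 and 0.76 in Control A and Control B. The STZ values lay between the Control values. Both means were 0.79, with an SD of 0.01 in STZ (n = 3) and 0.0424 in Control (n = 2), and the exon was not called (limma, adjusted p = 1). Depth was high here, at 566 to 839 informative reads in STZ libraries and 1233 and 1504 in Control libraries. Reads of both forms were lower on average in STZ, with inclusion-only reads at 86.2 ± 11.3 RPM in STZ and 117 ± 5.30 in Control, and skipping-only reads at 11.1 ± 1.87 in STZ and 15.5 ± 3.89 in Control (SD, n = 3 and 2).

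The 33-nt exon of Camk2a (chr18:61128665-61128697, plus strand), a coding exon that keeps the frame, had a Psi of 0.99, 0.75 and 0.82 in STZ A, STZ B and STZ C, against 0.85 and 0.84 in Control A and Control B. STZ A was the highest and STZ B the lowest of all libraries, so the groups overlapped, and the exon was not called (limma, adjusted p = 0.798). Skipping-only reads numbered 0, 1 and 3 in the STZ libraries, beside 29, 18 and 25 inclusion-only reads, against 10 and 19 beside 158 and 232 in the Control libraries. In the authors' deposited tables the Bayes factor was 1.55e+07 and 1543 for STZ A against Control A and Control B, and 0.21 to 0.49 in the other 4 pairs. The high values belong to the library in which no skipping-only read was counted, where 29 informative reads allow a skipping share of up to 10.3%.

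Too few informative reads were left to test Psi of the other 3 events. The 21-nt exon of Ryr2, exon 4 of 105 in the transcript that holds it, had a Psi of 0.87, 0.78 and 0.22 in STZ A, STZ B and STZ C, against 0.91 and 0.96 in Control A and Control B. STZ C stood apart, and its value rests on 1 skipping-only read. All 138 inclusion-only reads came from the other 4 libraries, which had no skipping-only read. The neighbouring exons are only 105 and 15 nt long, and no read fit both forms in any library. Few reads may thus have been able to fit the skipping form, and these counts set no limit on the skipping share. In the authors' deposited tables the 2 pairs with STZ C had Bayes factors of 1171 and 1.32e+08, and the other 4 had 0.22 to 1.45.

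The 48-nt exon of Asph had 21, 8 and 5 inclusion-only reads in STZ A, STZ B and STZ C, against 26 and 28 in Control A and Control B, and no skipping-only read. The neighbouring exons are only 57 and 33 nt long, and no read fit both forms in any library. Few or no reads may thus have been able to fit the skipping form. The absence of skipping-only reads among 88 informative reads therefore sets no limit on the skipping share. Psi was yet deposited as 0.56, 0.39 and 0.83 in the STZ libraries, against 0.45 and 0.51 in the Control libraries. The 55-nt exon of Camk2d had a Psi of 0.01, 0.06 and 0.09 in the STZ libraries, against 0.04 and 0.03 in the Control libraries. Its inclusion-only reads numbered 0 in each STZ library, beside 23 skipping-only reads in all, and 3 and 1 in the Control libraries, beside 17 each. For these exons Psi and the read classes give different pictures, and no group difference could be read from either.

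**Figure D5:**
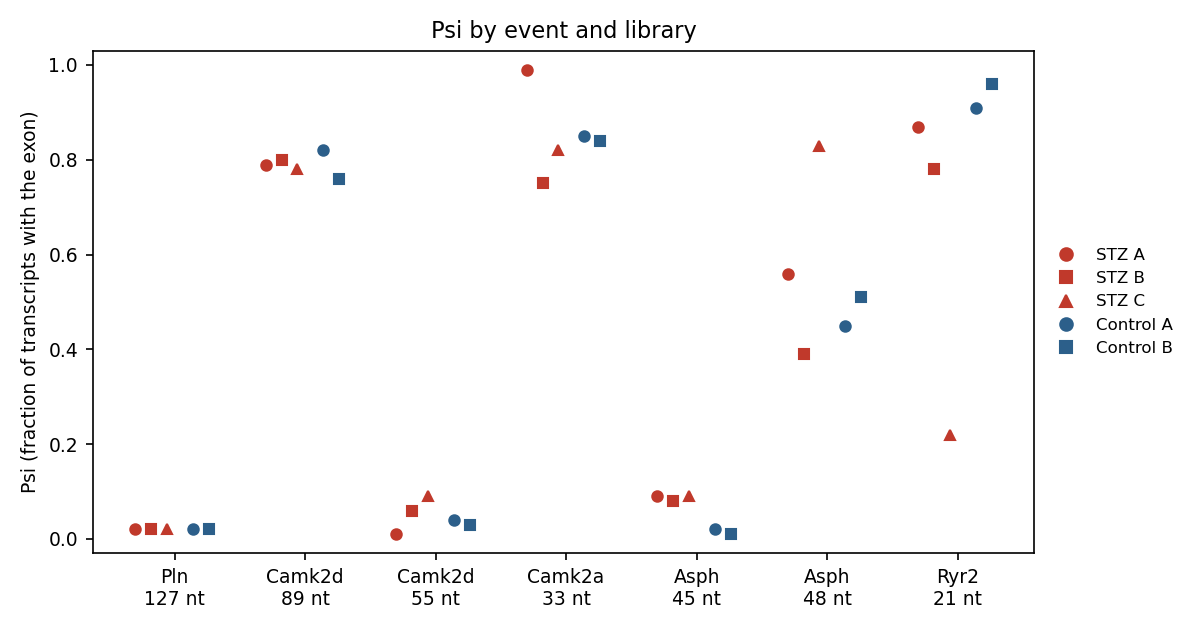
Psi (vertical axis, from 0 to 1) of the 7 events, 1 point per library, STZ in red left of Control in blue. The 45-nt exon of Asph is at 0.08 to 0.09 in STZ against 0.01 and 0.02 in Control, while the 89-nt exon of Camk2d is at 0.78 to 0.80 in STZ and 0.76 and 0.82 in Control.

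Among other genes of calcium handling, the shares called lower and higher were no larger than among all tested genes. Of 98 genes listed from general knowledge besides the 5, 31 had an event and 29 could be tested for event reads. Among them 5 were lower in STZ, 4 higher and 20 not called, beside 29.3% lower and 18.7% higher of all tested genes, and their median log2 change was -0.24. Of 27 tested events of these genes, 1 had a higher and 2 a lower Psi, beside 4.84% higher and 10.1% lower of all tested events, so these shares too were no larger than among all events.

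Among genes of the release complex 2 of 5 fell, beside 29.3% called lower of all tested genes. Srl, which encodes the calcium-binding sarcalumenin of the reticulum lumen, had 630, 335 and 286 RPM in the STZ libraries, against 1203 and 1405 in the Control libraries (log2 change -1.73; limma, adjusted p = 0.00226). Speg, a kinase that phosphorylates junctional proteins, had 171, 136 and 123 in the STZ libraries, against 285 and 327 in the Control libraries (log2 change -1.10; adjusted p = 0.00141). For both, every STZ value was under both Control values, as was so in this direction for 40.9% of all tested genes. Values of Fkbp1a, a ryanodine receptor binding protein, were 20.03 ± 2.70 in STZ and 23.8 ± 4.54 in Control (SD, n = 3 and 2), and it was not called.

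Among genes of calcium uptake 1 of 7 fell and 1 rose, beside 29.3% lower and 18.7% higher of all tested genes. Hax1, whose protein binds phospholamban, averaged 176 ± 12.4 RPM in STZ and 290 ± 6.59 in Control (SD, n = 3 and 2; log2 change -0.72; limma, adjusted p = 0.00295). Atp2a3, a SERCA pump best known from non-muscle cells such as endothelium, averaged 458 ± 159 in STZ and 179 ± 12.8 in Control (log2 change 1.30; adjusted p = 0.00347). Of the 3 measured endothelial markers, Pecam1 had a log2 change of 1.62 (adjusted p = 0.000474), Egfl7 of -0.29 (adjusted p = 0.355) and Emcn of -0.01 (adjusted p = 0.974), and their part in the value of Atp2a3 was not tested. S100a1, which promotes release and uptake, averaged 7951 ± 1116 in STZ and 10073 ± 54.6 in Control and did not pass (adjusted p = 0.0720).

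Of the calmodulin, CaMKII and calcineurin genes 2 of 6 rose and none fell, beside 18.7% higher and 29.3% lower of all tested genes. Calm2, a calmodulin gene, had 510, 343 and 360 RPM in the STZ libraries, against 252 and 221 in the Control libraries (log2 change 0.75; limma, adjusted p = 0.0118). Ppp3ca, a catalytic subunit of calcineurin, averaged 976 ± 71.2 in STZ and 703 ± 51.0 in Control (log2 change 0.47; adjusted p = 0.0154). Camk2g, another CaMKII gene, averaged 19.2 ± 9.60 in STZ and 33.9 ± 3.39 in Control and did not pass (adjusted p = 0.0652).

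Of 5 genes of cAMP and protein kinase A, Prkaca, a catalytic subunit, averaged 135 ± 25.5 in STZ and 294 ± 20.005 in Control (log2 change -1.13; limma, adjusted p = 0.00144). Prkar2a, a regulatory subunit, averaged 22.0 ± 8.71 in STZ and 45.1 ± 1.76 in Control (log2 change -1.11; adjusted p = 0.0190). These 2 fell and the other 3 were not called, beside 29.3% lower and 18.7% higher of all tested genes. In the list of plasma membrane and mitochondrial calcium transport 1 of 6 passed, the T-type channel gene Cacna1h, which rose to 26.8 ± 5.59 in STZ, against 9.24 ± 0.662 in Control (log2 change 1.51; adjusted p = 0.00137).

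The 3 events of these other genes whose Psi passed were in Ppp1cc, Atp2a3 and Cacna1h. Psi of a 105-nt exon of Ppp1cc, a catalytic subunit of protein phosphatase 1, fell to 0.903 ± 0.0115 in STZ, against 0.99 ± 0 in Control (limma, adjusted p = 0.00309). A 73-nt exon of Atp2a3 had a Psi of 0.733 ± 0.0379 in STZ and 0.89 ± 0.0141 in Control (adjusted p = 0.0296). Psi of a 122-nt exon of Cacna1h was 0.98 ± 0 in STZ and 0.95 ± 0 in Control (adjusted p = 0.00614). Means are over 3 STZ and 2 Control libraries. Psi was deposited rounded to 2 decimals, so an SD of 0 does not mean equal inclusion, and it leaves out counting error. The Cacna1h event had 445 informative reads over the STZ libraries and 148 over the Control libraries. The Control Psi of Ppp1cc lay at the upper clip of 0.99.

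The genes with the most similar patterns of event reads were found by the root mean square difference of centred log2 values over the 5 libraries, among 3164 genes with a mean of at least 100 event reads. For Pln they were Rcbtb2 (0.0400), Senp7 (0.0496) and Fuom (0.0610), and for Camk2a they were Thap2 (0.114), Ggcx (0.131) and Gpsm1 (0.151). Camk2d was nearest to Cuta (0.0428), Cdkl2 (0.0503) and 2010111I01Rik (0.0589). Asph was nearest to Slc25a13 (0.154), Adamtsl5 (0.186) and Fgd4 (0.226), and Ryr2, whose own counts are low, to Fgd4 (0.530), Huwe1 (0.604) and Acta1 (0.605).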

How the data were processed

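RNA of 5 samples of mouse left ventricle was sequenced on an Illumina instrument, per the labels. CASAVA 1.8.2, TopHat and the genome mm9 are named, with no role, per the submitters' processing notes. The 6 deposited tables compare cassette exon events between single libraries with MISO, per the file headers. For MISO no version, event annotation or filter is stated (not given in the sources used here). The authors deposited Psi as a fraction, the posterior mean of MISO, rounded to 2 decimals. The unit of the read classes is recorded as other: the authors deposited whole read counts in 4 classes for each event (fits inclusion only, skipping only, both or neither). The deposited difference of Psi, also of unit other, runs Control minus STZ in the tables and was turned to STZ minus Control here. The authors deposited the Bayes factor as a ratio, evidence for a difference over evidence for none. A library had the same values in all tables that hold it (0 differences), and 36 other columns of values per library were not used, among them the bounds of credible intervals.

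Events were named by the symbol in the tables, and otherwise by matching exon and intron lengths to GENCODE M21. Coordinates are in mm9. The mm9 genome was not used here, and sequences come from GENCODE M21 transcripts (GRCm38) and RefSeq (GRCm38.p6).

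Event reads were summed per gene over events in all 6 tables and scaled to a library total of 1000000 (RPM). Where the events of a gene overlap, a read can count in more than 1. Genes with a mean of at least 10 event reads were tested in limma 3.58.1 (R 4.3.3) on log2(RPM + 0.1). The added 0.1 makes log2 changes of low genes smaller. A log2 change compares means of log values, so it can be larger than the ratio of group means, as for Ryr2. Psi was clipped to 0.01 to 0.99 and tested on the logit scale for events with at least 10 informative reads in every library. Both fits were two-sided, used all 5 libraries and a prior variance that follows the read level, with p-values adjusted over every tested feature (Benjamini-Hochberg) and calls at an adjusted p under 0.05. The fits were checked on simulated data. Named genes are all members, the called genes of the pathway lists (at most 4 a list), a few uncalled ones of those lists chosen for their role after their values were seen, and the 3 nearest patterns of each member. Tried were another clip, read minimum, pseudocount, scaling, choice of read classes or test, and each library left out. The members and lists were chosen with earlier results of these data known.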

Additional observations from a re-analysis of the deposited data

How the results depend on the processing

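All 5 genes kept their direction under every alternative tried, with log2 changes of -1.71 to -1.25 for Pln, -3.03 to -2.52 for Camk2a, -0.82 to -0.55 for Camk2d, -3.14 to -2.12 for Asph and -3.61 to -1.76 for Ryr2. All 5 were called under each other scaling, pseudocount, filter, choice of classes and test, and 3 to 5 with a library left out. The number of called genes was 2025, and 1053 to 2564 with a library left out. Of the 7 events, 5 were called for event reads, and 3 to 7 with a library left out, while all called events numbered 2754, and 1302 to 3536. For Psi, 713 events were called, and 282 to 467 with a library left out. Of those, 1 was a member, and 0 to 1 with a library left out. The logit change of Psi of the 45-nt exon of Asph stayed between 0.59 and 2.25. For uncalled exons the sign turned: for Camk2a (0.71) without STZ A (-0.39; -0.39 to 1.36 with a library left out), and for the 89-nt exon of Camk2d (-0.0089) with the read share in place of Psi (0.013), without STZ C (0.021) and without Control A (0.17; -0.19 to 0.17 with a library left out). The cause was not tested. Under a looser rule for the authors' tables (a change of 0.10, a Bayes factor of 5), 380 events passed in place of 204, and still 0 of the 7. No paired analysis was possible because the library columns carry none of the replicate numbers of the labels. Depth limits Psi of the Ryr2 event, which had 1 to 17 informative reads in STZ libraries.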

Other observations

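Reads that fit neither isoform of an event were counted above only in the alternative with all 4 read classes. They were 92.4% to 98.7% of all reads listed for the Ryr2 event, against 5.57% to 8.09% for Pln. For Ryr2 they numbered 46.8, 16.3 and 11.4 RPM in STZ A, STZ B and STZ C, against 68.8 and 85.7 in Control A and Control B. For Camk2a they numbered 34.9, 25.9 and 16.6 in the STZ libraries, against 205 and 228 in the Control libraries. With all 4 classes counted, the log2 change of Ryr2 was -1.99 (limma, adjusted p = 0.0159) and that of Camk2a was -3.03 (adjusted p = 0.000119).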
